A study of Mus musculus with 3 samples.

Results

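Adhesion molecules of the immunoglobulin superfamily were followed through the mouse pituitary in the presence and absence of the transcription factor Tpit. The 9 genes described are Alcam, Vcam1, Icam1, Icam2, Ncam1, Mcam, Pecam1, Ceacam10 and Ceacam1, out of 55293 gene symbols in the deposited counts. They were picked by name after earlier readings of these counts, by their level and by their share of cells with a count, so every level below is a description and carries no test. Whole pituitaries had been dissociated, sorted so that cells taking up propidium iodide were left out, and read by 3′ single-cell RNA sequencing. The groups were TpitWT, TpitHT and TpitKO, 1 library each, written WT, HT and KO here, with 11222, 12839 and 13413 cells. Tpit is the product of Tbx19 and is required for the hormone cells that make Pomc. The labels do not spell out HT, and they give neither the construction of the allele nor the age or number of mice behind a library.

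Proteins of this family carry immunoglobulin folds on the cell surface and bind either a copy of themselves on the neighbouring cell or an integrin. Endothelium and leukocytes use ICAM1, ICAM2, VCAM1 and PECAM1 to arrest and pass blood cells, and inflammatory signals acting through NF-kB induce ICAM1 and VCAM1. NCAM1, ALCAM and MCAM hold neural, endocrine and vascular cells together, and hormone cells of the pituitary form networks through contacts of like cells. CEACAM1 is an inhibitory receptor of epithelium and endothelium, and CEACAM10 is a small secreted relative found in rodents.

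Levels are counts of a gene scaled to a total of 1e+06 counts in a class of cells (CPM), given in the order WT, HT, KO, with 95% exact Poisson intervals in parentheses where printed. Ratios of CPM carry 95% exact conditional binomial intervals. All intervals cover counting error only and are too narrow, because counts come clustered in cells and nothing stands for the spread between mice. Classes are the authors' clusters, named here from marker genes. Of the hormone cells, clusters 1, 2 and 5 were called somatotrope-like, 0 and 4 lactotrope-like, 14 thyrotrope-like, 3 gonadotrope-like, 7 melanotrope-like and 6 corticotrope-like. Of the others, clusters 8 and 19 were called macrophage-like, 15 fibroblast-like, 10 stem cell-like and 9 endothelial-like. Clusters 6 and 7 hold no KO cells. Tbx19 checks the labels, at 17.6, 12.4 and 0.690 CPM over all cells. In WT and HT most somatotrope-like cells lie in clusters 1 and 2, and in KO they lie in clusters 1 and 5. Mean depth was 9561, 11869 and 9935 counts per cell, and between 36 and 40 cell barcodes were shared by any pair of libraries. RNA is read from its 3′ end, so the levels of different genes are not set against each other.

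Each gene had a home among the cell classes. Pecam1 and Mcam were read mainly in endothelial-like cells, Icam2 in endothelial-like and somatotrope-like cells, Vcam1 in macrophage-like and fibroblast-like cells, Icam1 in endothelial-, macrophage- and fibroblast-like cells, and Alcam and Ncam1 across the hormone cells. Ceacam10 was a gene of somatotrope-like and gonadotrope-like cells, and Ceacam1 was spread thinly over endothelial-like, stem cell-like, corticotrope-like and somatotrope-like cells. A correlation of log2(CPM + 1) over the 47 combinations of genotype and cluster with at least 50 cells describes the same grouping. Pearson's r was 0.86 for Mcam and Pecam1, 0.83 for Icam2 and Pecam1 and 0.74 for Vcam1 and Icam1, against -0.69 for Icam1 and Ncam1. These points share libraries and depth.

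**Figure D1:**
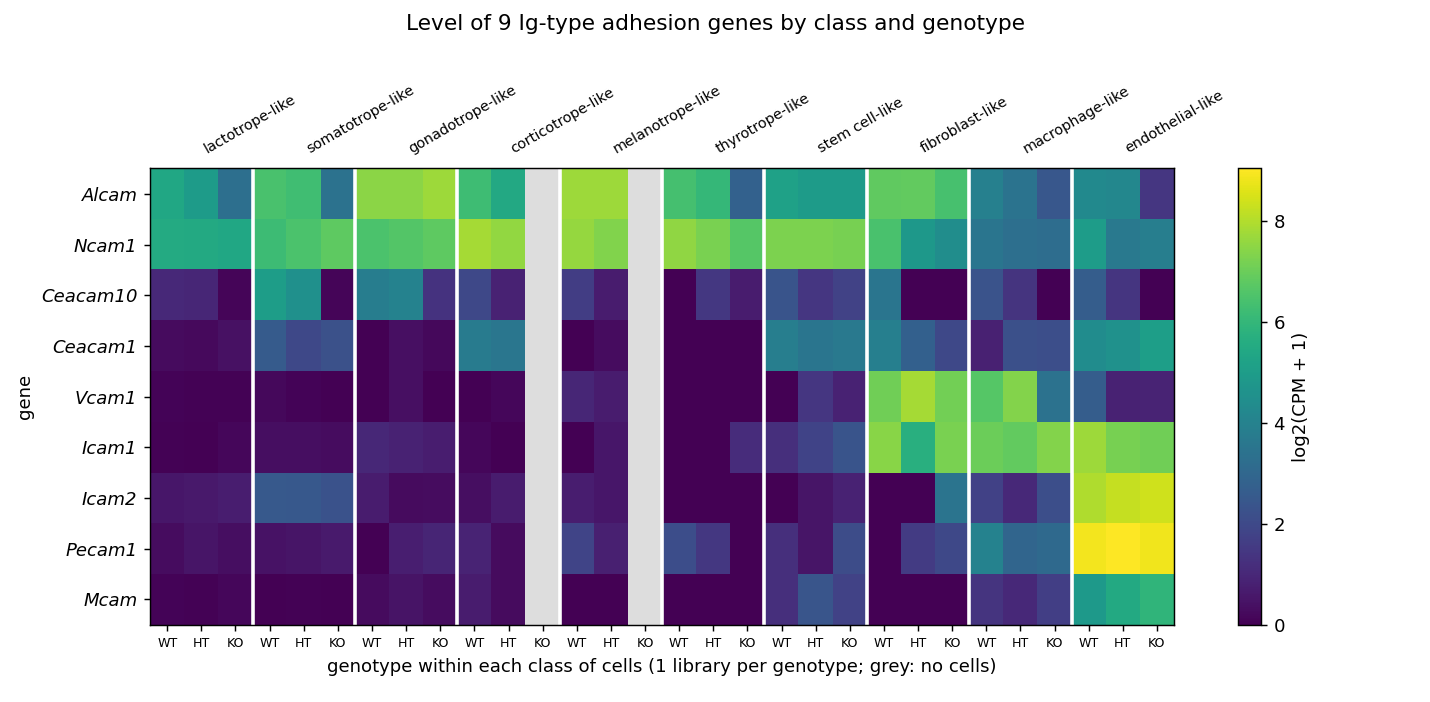
Each square is the level of 1 gene (rows) in 1 class of cells and 1 genotype (columns), as log2(CPM + 1), with grey where KO has no cells. The endothelial-like columns are brightest for Icam2, Pecam1 and Mcam, and the KO column is darker than its neighbours for Alcam in lactotrope-, somatotrope- and thyrotrope-like cells, for Ceacam10 in somatotrope- and gonadotrope-like cells, and for Vcam1 in macrophage-like cells.

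Over all cells of a library, 1 of 9 members (Ceacam10) was at least 2-fold lower in KO than in WT, against 2.55% of the 21791 genes whose counts in both libraries added up to 50 or more. Mcam and Pecam1, 2 of 9, were at least 2-fold higher, against 5.79% of genes. Between HT and WT, 0 of 9 were 2-fold higher and 0 of 9 were 2-fold lower, against 0.675% and 1.11% of 21624 genes. These sums mix the cell types, whose shares differ between the libraries. When the 15 clusters with at least 20 cells in every library were given the weights they have in WT, 3 of 9 (Alcam, Vcam1 and Ceacam10) were at least 2-fold lower in KO, against 2.06% of genes, and Mcam remained 2.02-fold higher. The median log2 ratio of the 9 genes over all cells was 0.0033, and that of all genes compared was 0.075. The members were picked with these values known, so nothing is read from the counts of members.

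**Figure D2:**
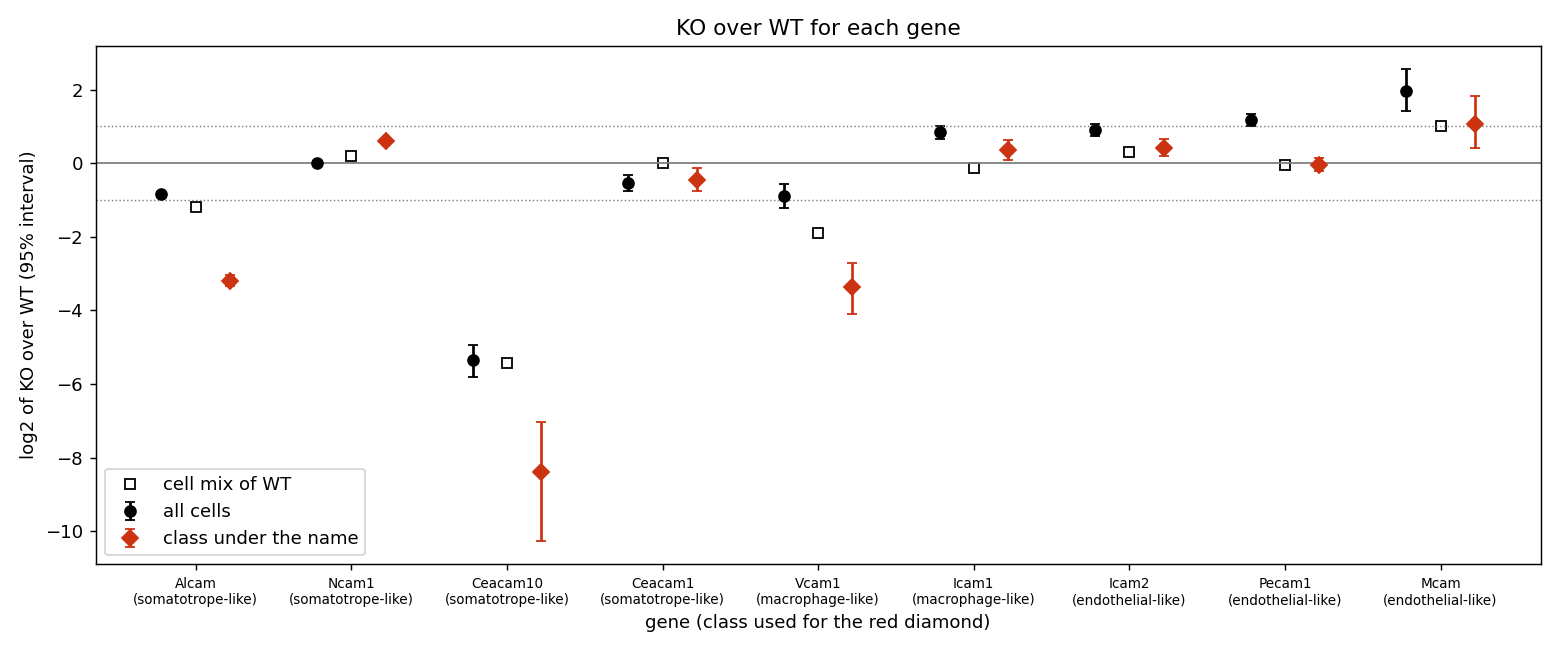
The log2 ratio of KO over WT is drawn for each gene over all cells (black circles), with clusters weighted as in WT (open squares), and within the class named under the gene (red diamonds), with 95% intervals for counting error where they were computed. Dotted lines mark 2-fold. Alcam, Vcam1 and Ceacam10 lie further below 0 within their class than over all cells, and Pecam1 lies above 0 over all cells and near 0 within endothelial-like cells.

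The level of Ceacam10 (ENSMUSG00000054169, chromosome 7, 24777206 to 24784657, plus strand, GRCm38, protein coding) was near 0 in the KO library. Its somatotrope-like cells held 1403, 1217 and 4 counts, or 32.1, 22.1 and 0.0963 CPM, in 14.8%, 13.8% and 0.0819% of the cells. WT and HT were both high and KO stood at 4 counts among 3662 cells, a level 333-fold lower (129.95 to 1226) than WT. Within this class it had the lowest ratio of the 15662 genes compared, with counts under 3 set to 3 for the ranks. The comparison does not rest on the split of the class into clusters: in cluster 1, which all genotypes fill, the counts were 518, 413 and 0. The 0 among 1188 KO cells allows up to 0.308 CPM at 3 counts, at least 121-fold lower than WT and at least 72.8-fold lower than HT.

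Gonadotrope-like cells were the only other class where the gene was well read, at 13.3 (10.3 to 16.9) CPM, 15.3 (12.9 to 17.9) CPM and 1.497 (1.02 to 2.11) CPM. The KO level was 8.89-fold lower (5.75 to 14.01) than WT and 10.2-fold lower (6.93 to 15.4) than HT, rank 8 of 14058 genes from the lowest ratio. Ceacam10 was 1 of 3 members measured in this class, against 2.5% of 14058 genes 2-fold lower. Over all cells the level was 14.7, 9.61 and 0.360 CPM, 40.9-fold lower (30.7 to 55.6) in KO than in WT. HT lay between the other libraries in somatotrope-like cells, with HT over WT at 0.690 (0.638 to 0.745), and level with WT in gonadotrope-like cells, at 1.15 (0.855 to 1.55). Counts in classes that should lack the gene, the background that free RNA can give, came to 3.98, 1.56 and 0 CPM in macrophage-like and 5.35, 1.64 and 0 CPM in endothelial-like cells. The lactotrope-like level, 1.06, 0.953 and 0.101 CPM, was below these in WT and HT. In KO it was below the 1.33 and 1.28 CPM that 3 counts would give in those classes, so it is not read as expression.

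Its relative Ceacam1 (ENSMUSG00000074272, chromosome 7, 25461707 to 25477603, minus strand), which encodes a transmembrane receptor, did not share this pattern. In somatotrope-like cells Ceacam1 stood at 5.01 (4.37 to 5.72) CPM, 2.86 (2.43 to 3.34) CPM and 3.68 (3.12 to 4.32) CPM, with KO over WT at 0.735 (0.594 to 0.908) and KO over HT at 1.29 (1.03 to 1.62). KO lay between the other libraries, with WT highest and HT lowest. In corticotrope-like cells it stood at 12.7 and 10.6 CPM in WT and HT, in stem cell-like cells at 13.5, 10.4 and 11.5 CPM, and in endothelial-like cells at 20.1, 22.9 and 32.4 CPM with KO over WT at 1.61 (0.920 to 3.02). Gonadotrope-like cells, which held Ceacam10, had 0, 3 and 3 counts of Ceacam1. Of the 91-base words in the GENCODE M21 transcripts of Ceacam1, 21.8% also occur in Ceacam10 or Ceacam2, so its counts are uncertain by what the counting did with shared reads. Of the words of Ceacam10, 0.318% occur elsewhere. These words were taken from whole transcripts, while reads come from the 3′ end, so neither value is the share of reads that could be shared. An antisense gene, 4732471J01Rik, overlaps Ceacam1 and had 142, 159 and 165 counts, and the use of strand in the counting is not given in the sources used here.

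The promoters of this gene pair are near copies of each other. RefSeq's table for GRCm38.p6 holds promoters of 5 of the 9 members (250 bases before to 50 after the start), and a local alignment of Ceacam10 with Ceacam1 ran over 280 bases with 93.2% identity. The stretches below, from -125 to -41 of the first listed Ceacam10 start (chr7:24777042-24777126, plus strand) and from -143 to -59 of Ceacam1 (chr7:25477684-25477768, minus strand), are shown because the RNA of these 2 genes differed in KO while the sequence is shared. Capitals mark AGAACA or its reverse complement TGTTCT, the hexamer bound by receptors of the glucocorticoid receptor group. In the pair at the left TGTTCT comes first and AGAACA follows directly, with no spacer and no overlap.
Ceacam10: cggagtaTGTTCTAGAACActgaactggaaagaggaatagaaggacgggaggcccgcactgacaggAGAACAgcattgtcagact
Ceacam1: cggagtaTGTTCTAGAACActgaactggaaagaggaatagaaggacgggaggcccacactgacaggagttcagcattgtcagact
Over these 85 bases the promoters differ at 3 positions, counted from 1 at the left end, with the Ceacam10 base first: G56A, A69T and A70T. The last 2 lie in the third hexamer, which Ceacam10 has and Ceacam1 lacks. On both strands, 18.97% of 32851 promoters in the table hold at least 1 such hexamer and 0.310% hold 3 or more. The cut at 3 is the number that Ceacam10 itself holds, so the latter share is a description only. No share is given for 2 or more, the number in Ceacam1. A T-box site (TCACACCT, 1.28% of promoters) was searched too and did not occur in the 5 promoters. The promoters of Alcam, Icam1 and Mcam held no such hexamer. A match is a run of letters in a window and says nothing of binding, and the part of these hexamers in the RNA levels was not tested.

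Alcam (ENSMUSG00000022636, chromosome 16, 52248996 to 52454074, minus strand) encodes the ligand of CD6 and binds itself between neighbouring cells. In WT it was read in all 6 hormone cell classes, and in KO the level depended on the class. In somatotrope-like cells it stood at 87.0 (84.3 to 89.8) CPM, 75.7 (73.4 to 78.1) CPM and 9.51 (8.59 to 10.5) CPM, and 50.7%, 49.4% and 7.54% of cells had a count. WT and HT lay close together and KO was 9.15-fold lower (8.25 to 10.2) than WT and 7.96-fold lower (7.18 to 8.85) than HT. Cluster 1 alone gave 74.6, 54.8 and 12.1 CPM, so the lower value was also seen in the cluster that the genotypes share. Of 5 members measured in somatotrope-like cells, 2 (Alcam and Ceacam10) were at least 2-fold lower in KO, against 2.86% of 15662 genes, and Alcam took rank 48 of 15662 from the lowest ratio.

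Thyrotrope-like cells, the makers of thyroid-stimulating hormone, gave 73, 37 and 10 counts of Alcam, or 82.4, 64.4 and 6.05 CPM, in 91, 52 and 157 cells. KO was 13.6-fold lower (6.997 to 29.6) than WT, rank 5 of 6129 genes. The 4 red-cell markers in these cells summed to 1197, 0 and 6.05 CPM, and their part in the Alcam value was not tested. Lactotrope-like cells gave 40.6, 30.1 and 8.77 CPM, and KO was 4.63-fold lower (4.16 to 5.17) than WT, rank 28 of 16531. Of 2 members measured there, 1 was at least 2-fold lower, against 2.63% of 16531 genes. Cluster 0 carried this difference, at 49.9, 34.7 and 11.7 CPM. Cluster 4 stood at 4.68, 3.77 and 4.46 CPM in every library, with KO over WT at 0.952 (0.640 to 1.44). In lactotrope-like cells the 5 melanotrope markers summed to 1217, 770.3 and 132 CPM and the 4 red-cell markers to 1.65, 1.61 and 83.6 CPM, and their part in the Alcam value was not tested. The melanotrope list shares Pomc and Tbx19 with the corticotrope list, whose 5 markers summed to 1188, 737 and 107 CPM there. Sums of melanotrope markers, here and below, therefore do not tell the RNA of these cell types apart.

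Gonadotrope-like cells, which make the gonadotropins, kept a high level in KO. Alcam stood at 178 (167 to 190.3) CPM, 175 (167 to 183) CPM and 209 (203 to 215) CPM there, in 73.1%, 83.7% and 82.3% of cells, with KO over WT at 1.17 (1.09 to 1.26). These cells were 4.001%, 4.91% and 12.4% of the libraries and held 10.7%, 16.9% and 75.9% of all Alcam counts. The sum over all cells, 78.5, 67.6 and 44.1 CPM, was 1.78-fold lower (1.72 to 1.84) in KO, less than in any of the 3 classes above. Melanotrope-like cells had the highest WT and HT levels, at 212 and 210.3 CPM, equal within counting error. Corticotrope-like cells stood at 73.9 and 42.5 CPM, with HT over WT at 0.575 (0.506 to 0.654), the lowest HT over WT ratio of Alcam among the classes compared. Stem cell-like cells stood at 35.2, 30.0 and 30.0 CPM and fibroblast-like cells at 115, 116 and 83.4 CPM, with intervals of KO over WT that include 1 (0.852 (0.589 to 1.24) and 0.727 (0.466 to 1.15)).

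In order of level, WT ran melanotrope-, gonadotrope-, fibroblast-, somatotrope-, thyrotrope-, corticotrope-, lactotrope- and stem cell-like. Counting intervals of fibroblast-, somatotrope-, thyrotrope- and corticotrope-like cells overlapped in part, and so did those of the last pair. In KO the somatotrope-, lactotrope- and thyrotrope-like levels (9.51, 8.77 and 6.05 CPM) overlapped each other at the bottom of the hormone cells. Alcam outside the hormone cells, taken as the background that free RNA can give, was at 14.3, 9.89 and 4.43 CPM in macrophage-like and 18.7, 17.2 and 1.71 CPM in endothelial-like cells, in 3.59%, 3.36% and 1.29% and 5.31%, 3.91% and 0.725% of cells, at mean depths of 3763, 4608 and 4859.8 and 3609.7, 4343 and 4249.6 counts per cell. The cluster 4 level lies below both in WT and HT, and in KO, at 4.46 CPM (3.59 to 5.48), it lies near the macrophage-like 4.43 CPM (2.12 to 8.14) and above the endothelial-like 1.71 CPM (0.465 to 4.37). This background was lower in KO, as Alcam was in somatotrope-, lactotrope- and thyrotrope-like cells but not in gonadotrope-like cells. The 5 melanotrope markers in somatotrope-like cells summed to 599, 499.8 and 15.4 CPM. Of these, 1 marker was at 0 in KO and none in WT and HT. The 4 red-cell markers there summed to 1.62, 160.4 and 128 CPM. Their part in the Alcam values was not tested. In gonadotrope-like cells the 5 melanotrope markers summed to 2389, 1712 and 102 CPM, and the 5 corticotrope markers, which share Pomc and Tbx19 with them, to 2321, 1623 and 19.1 CPM. The part of either in the Alcam value there was not tested.

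**Figure D3:**
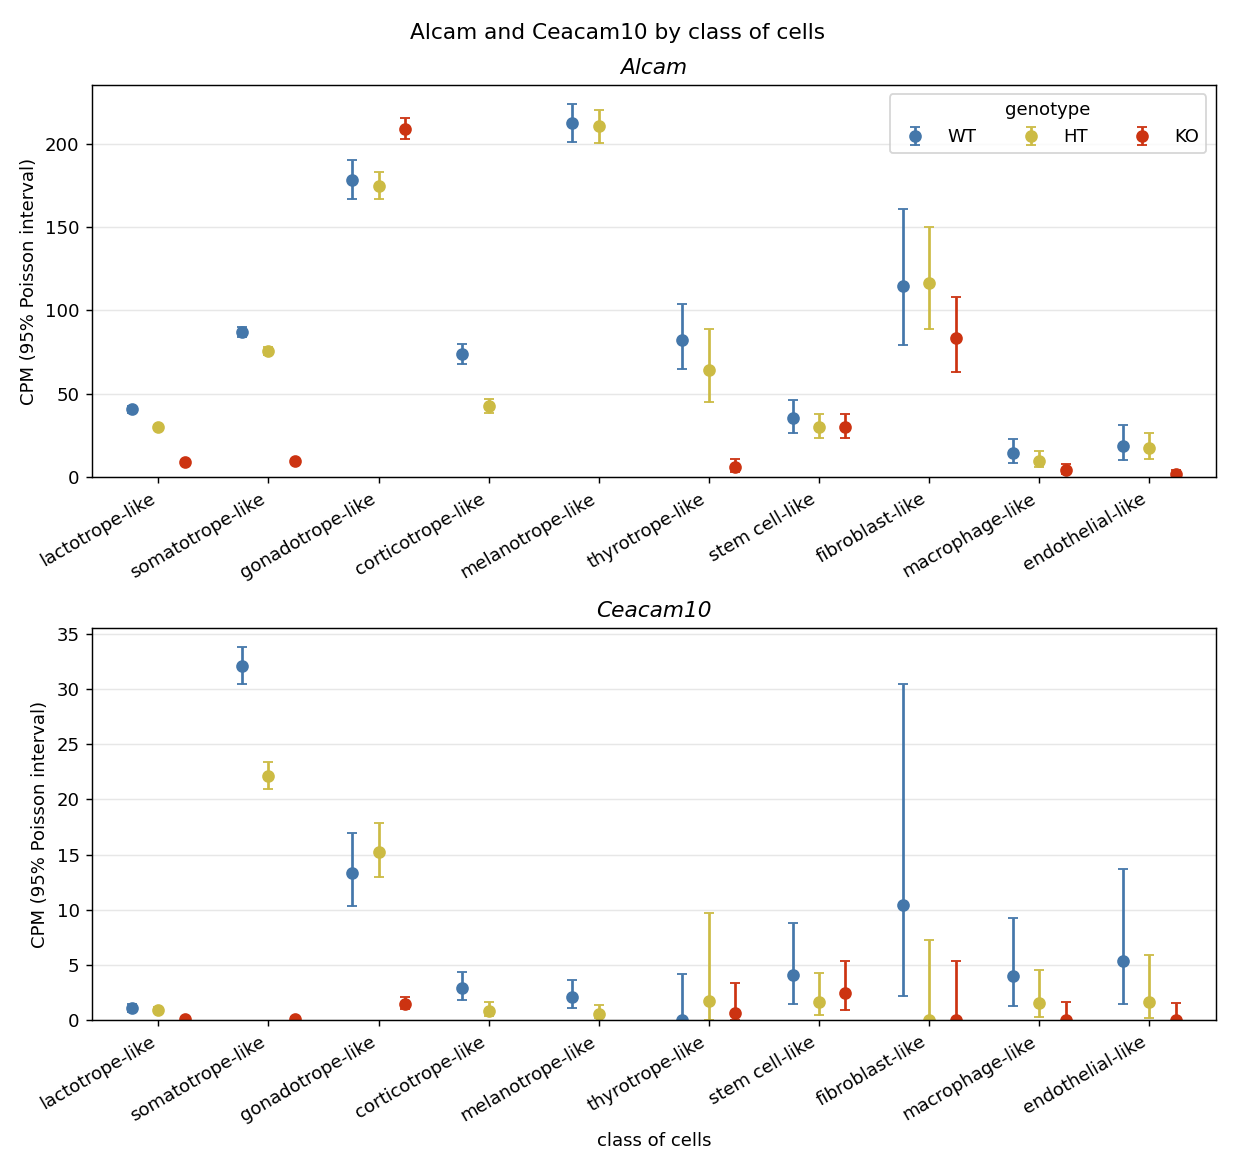
Points give the level of Alcam (upper panel) and Ceacam10 (lower panel) in CPM by class of cells and genotype, 1 library each, and bars are 95% Poisson intervals for counting error. KO lies below WT and HT for Alcam in lactotrope-, somatotrope- and thyrotrope-like cells and above them in gonadotrope-like cells, and KO lies near 0 for Ceacam10 where WT and HT are high.

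Ncam1 (ENSMUSG00000039542, chromosome 9, 49502136 to 49798925, minus strand), the neural cell adhesion molecule of hormone and stem cells, was level over all cells, at 83.3, 82.4 and 83.5 CPM in 40.9%, 46.2% and 40.8% of cells, with KO over WT at 1.00 (0.975 to 1.03). The classes under that sum differed in direction. Somatotrope-like cells stood at 72.4 (69.9 to 75.0) CPM, 88.6 (86.1 to 91.1) CPM and 111 (108 to 114) CPM, in rising order with no overlap of intervals, and KO over WT was 1.53 (1.46 to 1.60). In cluster 1 the values were 65.3, 75.2 and 108 CPM. Gonadotrope-like cells stood at 88.4, 98.7 and 112 CPM, with KO over WT at 1.26 (1.14 to 1.401). Thyrotrope-like cells ran the other way, at 186, 148 and 99.2 CPM, with KO 1.88-fold lower (1.502 to 2.34) than WT. Lactotrope-like (45.0, 44.1 and 40.8 CPM) and stem cell-like cells (154, 152 and 145 CPM) had KO over WT at 0.907 (0.850 to 0.969) and 0.947 (0.799 to 1.12).

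The highest WT levels of Ncam1 were those of the classes that KO lacks, corticotrope-like cells at 228 and 193 CPM and melanotrope-like cells at 196 and 161 CPM in WT and HT. HT over WT was 0.845 (0.792 to 0.902) and 0.818 (0.756 to 0.885). In KO the highest level was in the unnamed cluster 11, at 162, 166 and 187 CPM in 53, 107 and 871 cells. Macrophage-like cells, which should lack the gene, stood at 10.3, 8.85 and 8.41 CPM, and endothelial-like cells at 30.8, 11.5 and 13.6 CPM from 23, 14 and 32 counts. An antisense gene within Ncam1, Gm11149, had 23, 43 and 40 counts.

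**Figure D4:**
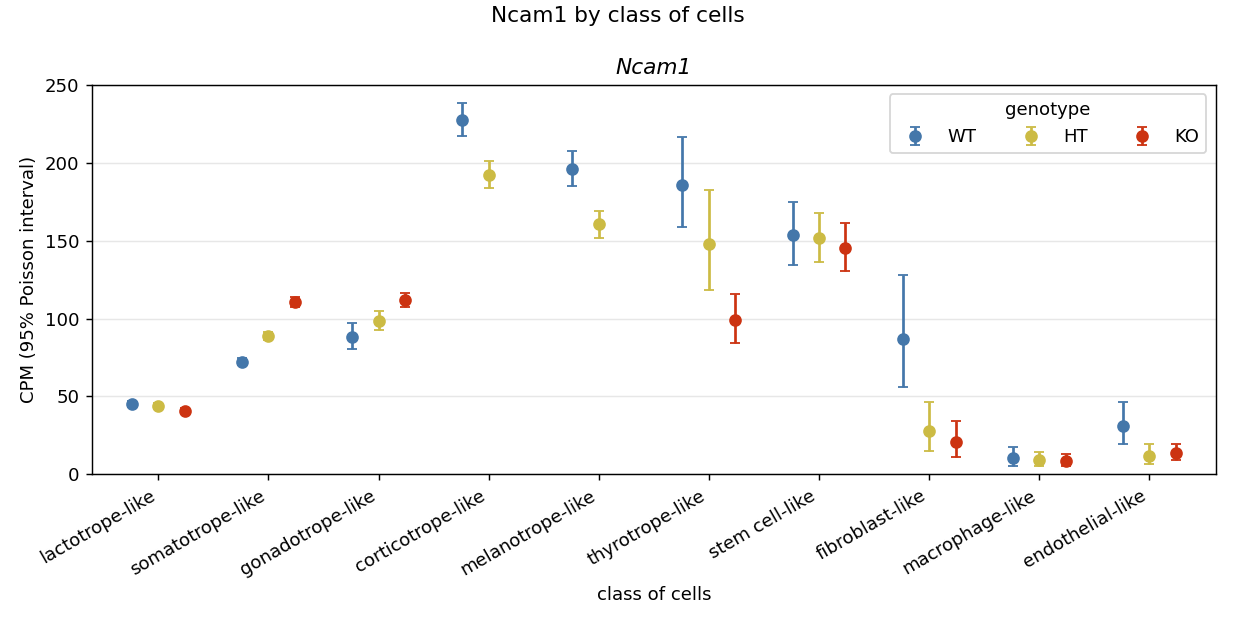
Points give the level of Ncam1 in CPM by class of cells and genotype, 1 library each, and bars are 95% Poisson intervals for counting error. The level runs upward from WT to HT to KO in somatotrope- and gonadotrope-like cells and downward in thyrotrope-like cells.

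Vcam1 (ENSMUSG00000027962, chromosome 3, 116109949 to 116129688, minus strand), the ligand of the integrin of Itga4 and Itgb1, separated its host cells. Macrophage-like cells gave 127, 319 and 22 counts, or 101 (84.2 to 120.2) CPM, 166 (148 to 185) CPM and 9.74 (6.10 to 14.7) CPM, in 16.8%, 26.4% and 2.80% of 334, 417 and 465 cells. HT was the highest and KO was 10.4-fold lower (6.57 to 17.1) than WT and 17.1-fold lower (11.1 to 27.6) than HT. Vcam1 was 1 of 2 members measured there, against 2.04% of 6702 genes at least 2-fold lower, and its ratio had rank 3 of 6702, after Pomc and Ccn1. Cluster 8 held nearly all of these counts, at 112, 195 and 11.4 CPM. The 8 macrophage markers in this class summed to 16871, 19715 and 19583 CPM, none at 0 in any library. Of these, C1qa, a complement gene of tissue macrophages, stood at 5921, 7195 and 6735 CPM. Whether the mix of macrophage states differed between the libraries was not tested. The 4 somatotrope markers in these cells summed to 58366, 31751 and 13333 CPM, hormone RNA that macrophages should lack. Sums of the melanotrope markers (1584, 1229.8 and 15.9 CPM over 5 genes), cycling markers (41.4, 17.7 and 3.098 CPM over 5) and stem cell markers (39.0, 84.8 and 10.2 CPM over 8) were also lowest in KO, the last in the order of Vcam1, while the 5 lactotrope markers were highest in KO, at 9626, 6727 and 19679 CPM. The part of these in the Vcam1 value was not tested.

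Fibroblast-like cells carried Vcam1 at 136 (96.4 to 185) CPM, 225 (186 to 270.3) CPM and 138 (111 to 168) CPM, with KO over WT at 1.01 (0.692 to 1.51). HT was again the highest, and WT and KO overlapped. These cells were few (57, 99 and 144), they also carried mural markers at 319.7, 493 and 705 CPM over 7 genes, and macrophage markers in them summed to 0, 111 and 320.4 CPM over 8 genes. The 5 melanotrope markers summed to 24928, 2084 and 16.1 CPM in them, and the 5 lactotrope markers to 33400, 5788 and 14209.5 CPM. The part of these in the Vcam1 and Alcam values of fibroblast-like cells was not tested. Endothelial-like cells, a site of induced VCAM1 in inflamed vessels, had 4, 1 and 2 counts. The hormone cell classes together gave few counts, among them 2, 3 and 2 in lactotrope-like cells.

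Icam1 (ENSMUSG00000037405, chromosome 9, 21015985 to 21028817, plus strand), the ligand of leukocyte beta-2 integrins, did not follow Vcam1. Macrophage-like cells stood at 129.7 (111 to 151) CPM, 117 (102 to 133) CPM and 165 (149 to 183) CPM, in 24.6%, 26.6% and 33.8% of cells, with KO over WT at 1.27 (1.06 to 1.54). The small cluster 19 had the highest level of all clusters, at 372, 180.2 and 473 CPM in 27, 40 and 48 cells. Taken apart, KO over WT was 1.15 (0.911 to 1.46) in cluster 8 and 1.27 (0.926 to 1.77) in cluster 19, and both intervals include 1. In endothelial-like cells Icam1 was lower in both HT and KO than in WT, at 210.1, 145 and 134 CPM, with KO over WT at 0.639 (0.526 to 0.779) and HT over WT at 0.690 (0.554 to 0.861). Fibroblast-like cells stood at 174, 51.3 and 148 CPM, where HT was low on 26 counts. Over all cells KO over WT was 1.79 (1.58 to 2.01), while the value with clusters weighted as in WT was 0.906. An antisense gene at the locus, Gm47079, had 65, 71 and 101 counts.

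**Figure D5:**
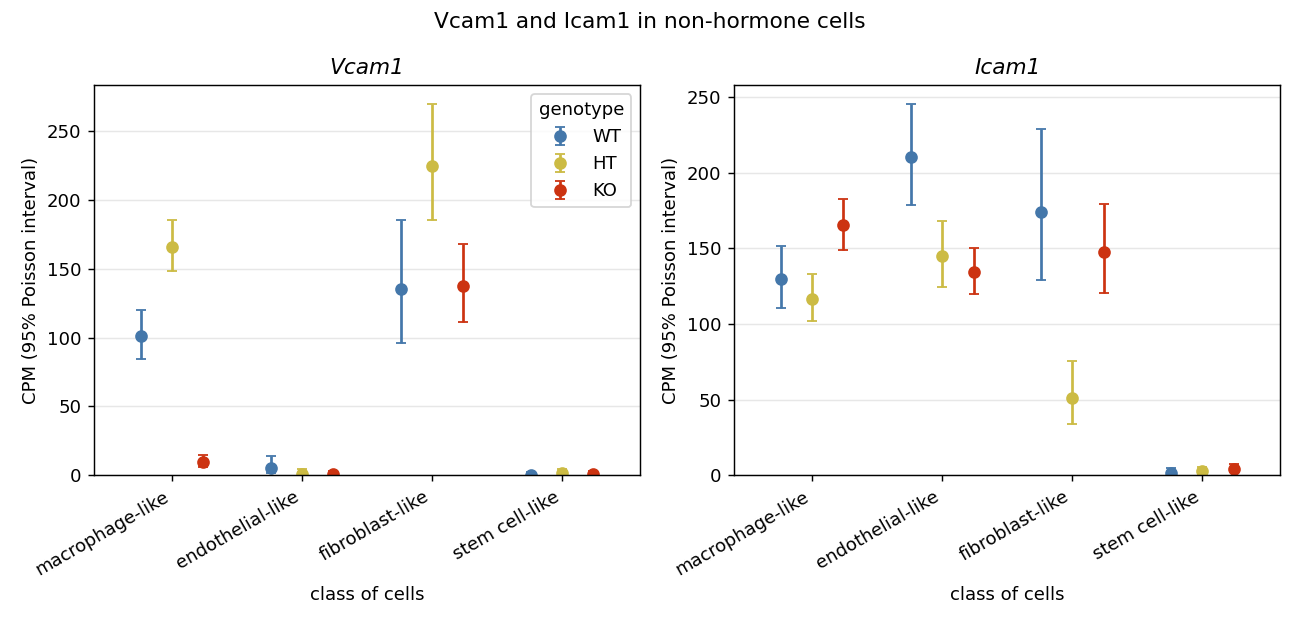
Points give the levels of Vcam1 (left) and Icam1 (right) in CPM in 4 classes of cells by genotype, 1 library each, and bars are 95% Poisson intervals for counting error. For Vcam1, KO is low in macrophage-like cells and level with WT in fibroblast-like cells, and for Icam1 KO is above WT in macrophage-like and below WT in endothelial-like cells.

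Endothelial-like cells, where the vascular members had their highest levels among the named classes, were 1.84%, 2.19% and 4.12% of cells. They also held RNA of other cells. The 4 somatotrope markers summed to 94529, 39612 and 26903 CPM there and the 5 lactotrope markers to 38094, 9723 and 24135 CPM. The 4 red-cell markers summed to 929, 14694 and 1578 CPM. The part of these in the endothelial-like levels of the members was not tested. Pecam1 (ENSMUSG00000020717, chromosome 11, 106654217 to 106750628, minus strand), the junction protein of endothelium, was 2.25-fold higher (2.01 to 2.52) in KO over all cells, at 3.93, 4.78 and 8.84 CPM. Within endothelial-like cells Pecam1 stood at 468, 528 and 457 CPM. There KO was level with WT, with KO over WT at 0.975 (0.863 to 1.10), and below HT, with KO over HT at 0.865 (0.784 to 0.955). Endothelial-like cells held 82.9%, 88.3% and 90.9% of its counts. Icam2 (ENSMUSG00000001029, chromosome 11, 106377656 to 106388075, minus strand), a constitutive endothelial ligand of leukocyte integrins, was 1.86-fold higher (1.66 to 2.09) over all cells and stood at 249, 301 and 332 CPM in endothelial-like cells, with KO over WT at 1.33 (1.14 to 1.57) and KO over HT at 1.10 (0.974 to 1.25). Icam2 was also read in 5.21%, 6.19% and 4.07% of somatotrope-like cells, at 4.83, 4.68 and 3.80 CPM, which made up 48.4%, 38.0% and 15.7% of its counts against 42.7%, 54.3% and 77.2% in endothelial-like cells. Lactotrope-like cells stood at 0.452, 0.519 and 0.645 CPM and macrophage-like cells at 2.39, 1.04 and 3.54 CPM from 3, 2 and 8 counts. The macrophage-like interval thus holds the somatotrope-like level in WT (0.492 to 6.98) and KO (1.53 to 6.98), but not in HT (0.126 to 3.76).

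Mcam (ENSMUSG00000032135, chromosome 9, 44134469 to 44142727, plus strand), the melanoma cell adhesion molecule of vessel walls, differed within the class as well. Its endothelial-like counts were 21, 54 and 139, or 28.1 (17.4 to 43.0) CPM, 44.3 (33.2 to 57.7) CPM and 59.3 (49.8 to 70.0) CPM, in 8.70%, 10.3% and 16.1% of cells. KO was 2.11-fold higher (1.33 to 3.51) than WT, HT lay between, and KO over HT was 1.34 (0.971 to 1.87). Of 6 members measured in endothelial-like cells this was the 1 that was at least 2-fold higher, against 4.41% of 7547 genes. The 7 mural markers in these cells summed to 218, 262 and 170.1 CPM, and their part in the Mcam value was not tested. The antisense gene Gm10687 at this locus had 11, 17 and 24 counts. Over all cells Mcam was at 0.317, 0.499 and 1.24 CPM, 3.91-fold higher (2.69 to 5.83) in KO.

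Partners and relatives of the members were counted over all cells from lists of related genes. Of 49 other adhesion molecules of this superfamily, 46 were measured. In KO, against 5.79% of all genes higher and 2.55% lower, 2 were at least 2-fold higher, Ncam2 at 11.1, 11.9 and 25.8 CPM and Esam, an endothelial junction gene, at 4.32, 6.25 and 9.91 CPM. Clmp, at 4.69, 3.56 and 1.47 CPM, was the 1 at least 2-fold lower, and the median log2 ratio of the list was 0.18. Ncam2 was a gene of gonadotrope-like cells, where it stood at 46.7, 47.0 and 41.4 CPM and so was not higher within the class. Of 13 Ceacam family genes beyond the members, 2 were measured, and Ceacam16 was lower, at 0.867, 0.282 and 0.0976 CPM.

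Of 15 measured integrins and other binding partners, 5 were at least 2-fold higher in KO over all cells, against the 5.79% of all genes given above, 0 were at least 2-fold lower, and the median log2 ratio was 0.94. Fgfr1, a receptor that NCAM1 binds, stood at 4.72, 5.79 and 18.2 CPM, and at 34.0, 34.8 and 67.2 CPM within gonadotrope-like cells. Itgam and Itgax, leukocyte integrin subunits that bind ICAM1, stood at 0.718, 0.827 and 2.00 CPM and at 0.289, 0.453 and 1.13 CPM over all cells, and within macrophage-like cells at 51.7, 55.7 and 90.7 CPM and 21.5, 29.1 and 43.8 CPM. Itga4, a subunit of the integrin that binds VCAM1, stood at 45.4, 32.8 and 41.6 CPM in the macrophage-like cells where Vcam1 was low.

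Of 19 measured genes of the NF-kB response and its receptors, 1 was at least 2-fold higher and 2 were at least 2-fold lower in KO, against the same 5.79% and 2.55%, with a median log2 ratio of 0.28. Cxcl10, an interferon-induced chemokine, stood at 1.33, 1.84 and 4.56 CPM, Il6ra, a cytokine receptor, at 18.7, 12.2 and 2.98 CPM and Cxcl1, a neutrophil chemokine, at 14.2, 9.23 and 4.99 CPM. In macrophage-like cells Cxcl1 stood at 62.1, 46.8 and 8.41 CPM and so was low with Vcam1 in KO. Il1b, Tnf and Nfkbia, chosen after their values were seen and outside the rule for naming genes, stood there at 2092, 1980.2 and 2409 CPM, 61.3, 39.0 and 70.4 CPM and 715, 732 and 513 CPM. The part of NF-kB signals in the Vcam1 value was not tested. Of 11 sheddases, linkers and polysialyltransferases, 1 was at least 2-fold higher, Msn, the moesin linker of ICAM tails, at 8.26, 9.33 and 19.0015 CPM, and 0 were lower, with a median of 0.15. Msn in endothelial-like cells stood at 331, 442 and 466 CPM.

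Genes with the most similar pattern over the 47 combinations were sought among 11314 genes with at least 1000 counts, by Pearson's r of log2(CPM + 1). For Alcam they were Spsb1 (0.68), Fxyd6 (0.66) and Foxp2 (0.66), and for Ceacam10 Il31ra (0.62), Slc39a14 (0.58) and Dnah9 (0.56). For Vcam1 they included Tmem119 (0.91) and Olfml3 (0.89), and for Ncam1 Zfp612 (0.89), Map2 (0.89) and Spint1 (0.89). The likeness for Alcam and Ceacam10 was loose beside that for the other pair.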

How the data were processed

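Single-cell RNA of mouse pituitaries was read with 10x Chromium 3′ v3 reagents in 3 libraries, 1 per genotype, per the labels' protocols. The builds mm10 and GRCm38 and the tools Seurat 3.1, Cell Ranger 5 and DESeq2 (version not given) come from the submitters' processing notes, which state no role for them. The authors deposited raw counts that were already added up by gene within each of 61 combinations of genotype and cluster. Whether reads were collapsed to molecules is not given in the sources used here. A second deposited table holds the authors' normalized signal, which equalled the raw sums times 1 factor per column and served as an alternative. Other deposited values were the number of cells with a count of each gene and the cluster of each cell barcode. No counts of single cells were used, so depth is given as means, cells were not thinned to equal depth and doublets were not treated here.

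Rows with the same symbol were added (55403 rows, 55293 symbols). Clusters were named from 16 marker lists: at least 3 markers and 2 of every 3 on a list at 2-fold or more of the median of the other clusters, a median log2 fold of at least 3, and a gap of at least 1 to the next list. The red-cell list was left out of this naming. Its median log2 fold was 7.27 in cluster 12, which stayed unnamed, 4.04 and 3.74 in the somatotrope-like clusters 1 and 5 and 8.59 in the endothelial-like cluster 9. This rule was set after the values were seen, and 5 clusters stayed unnamed. Counts were summed per class and divided by the class total. A gene was compared where both libraries together held at least 50 of its counts, and 2-fold was the size reported. With 1 library per genotype no test was run and no p-value was computed. KO against WT was the main contrast. KO against HT shares its KO library with it, and HT against WT shares its WT library. The members and gene lists were chosen with earlier results of these data known. All 9 members are named, and from each list up to 3 genes each way, at least 2-fold against WT and 1.4-fold the same way against HT. Intervals are at 95% (scipy 1.17.1), and for a gene with 0 counts the level that 3 counts would give is also printed. Coordinates of the members were those of the deposited table and identical to GENCODE M21 on GRCm38. 1 gene that the rule for similar patterns named is not reported here. The summing and ratios were tested on simulated data. Alternatives were the authors' normalized values, other totals, pseudocounts of 1 and 10 CPM, other count minimums and folds, HT as control, the share of cells, and other choices of clusters.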

Additional observations from a re-analysis of the deposited data

Results flagged for a closer look

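For 4 genes the ratio of KO to WT stood above 1 in one class of cells and below 1 in another, with counting intervals that leave out 1 on both sides. Alcam was at 1.17 (1.09 to 1.26) in gonadotrope-like and 0.0735 (0.0338 to 0.143) in thyrotrope-like cells. Icam1 was at 1.27 (1.06 to 1.54) in macrophage-like and 0.639 (0.526 to 0.779) in endothelial-like cells. In the clusters pooled as macrophage-like, Icam1 was at 1.15 (0.911 to 1.46) in cluster 8 and 1.27 (0.926 to 1.77) in cluster 19. Both of these intervals include 1. Icam2 was at 1.33 (1.14 to 1.57) in endothelial-like and 0.788 (0.637 to 0.973) in somatotrope-like cells. Ncam1 was at 1.53 (1.46 to 1.60) in somatotrope-like and 0.443 (0.251 to 0.793) in endothelial-like cells, the latter from 23 and 32 counts. None of these differences between classes was tested, since each genotype had 1 library.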

How the results depend on the processing

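No paired analysis was possible because there was 1 library for each genotype, and none could be left out. The count of 1 member at least 2-fold lower over all cells became 3 with the authors' normalized values, 3 at 1.5-fold, 2 with HT as the control, 2 by the share of cells and 2 without corticotrope-like and melanotrope-like clusters. Ceacam10 was among them in every one of these, joined by Alcam, Vcam1 or both. The count of 2 members at least 2-fold higher over all cells became 1 with the normalized values, 0 with 1 CPM added, 0 with 10 CPM added, 1 with at least 200 counts, 4 at 1.5-fold, 1 at 3-fold and 1 by the share of cells. The 1 member lower in lactotrope-like cells became 2 with no minimum count, 2 with HT as the control and 0 in cluster 4 alone. The 3 members lower with clusters weighted as in WT became 1 with 10 CPM added. The 2 members lower in somatotrope-like cells became 1 (Alcam) in cluster 5 alone, which had 28 WT cells, and stayed at 2 or 3 under the other alternatives run. For single genes, 52 of the alternative log2 ratios moved by more than the counting interval and 59 did not, and none changed the sign of a 2-fold difference. Over all cells, Ncam1 kept its sign in 4 of 7 alternatives and Ceacam1 in 6 of 7. The causes of these differences were not tested.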

Other observations

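Members were also read in clusters that the naming rule left unnamed. Those described here were high for more than 1 marker list, with too small a gap between them. Median log2 folds in cluster 11 were 4.40 for gonadotrope and 4.11 for melanotrope markers. In cluster 13 they were 4.24 for gonadotrope and 3.83 for thyrotrope markers, and in cluster 16 they were 7.48 for neutrophil and 6.85 for lymphoid markers. Cluster 11, with 53, 107 and 871 cells, had Alcam at 70.3, 59.0 and 39.9 CPM and Ncam1 at 162, 166 and 187 CPM, so KO lay below WT for the first (KO over WT 0.568 (0.370 to 0.913)) and near it for the second (1.15 (0.876 to 1.55)). Cluster 13, with 87, 139 and 124 cells, had Alcam at 99.3, 125 and 89.7 CPM, with KO over WT at 0.904 (0.634 to 1.30). Cluster 16, with 72, 17 and 161 cells, had Alcam at 49.4, 66.9 and 99.6 CPM and Icam1 at 19.2, 47.8 and 56.4 CPM, from 18, 7 and 76 and 7, 5 and 43 counts. Alcam was thus low in KO in somatotrope- and thyrotrope-like cells, in cluster 0 of the lactotrope-like cells and in cluster 11. It was not low in gonadotrope-like cells or cluster 16. In clusters 4 and 13 and in stem cell- and fibroblast-like cells the interval of KO over WT included 1. On few counts, KO over WT was also low in endothelial-like (0.0910 (0.0218 to 0.290)) and macrophage-like cells (0.309 (0.127 to 0.706)), taken as background above, and in cluster 12 (0.340 (0.150 to 0.803)).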
